A study of Mus musculus with 12 samples.

Results

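Serum-transfer arthritis was compared with the healthy paw in mice that had all received the same control antibody, anti-gp120. The arthritic group held 4 mice given K/BxN serum and anti-gp120, and the naive group held 4 mice given anti-gp120 without serum. The serum-injected mice were sampled at day 7. Total paw tissue was sequenced, with 1 animal in each library, so that p-values measure the spread between animals. No source used here gives the strain, sex or age. These 8 libraries are all that carry anti-gp120 among the 12 of the study. The other 4 came from serum-injected mice given 6F2, an agonistic antibody to SIRPa, and are not compared here. They enter the choice of genes with enough counts, the scaling of the libraries and the estimate of the spread. When only the 8 libraries compared were fitted, 15891 genes were tested instead of 16674, and far fewer passed the threshold, as given below. All 16674 genes with enough counts to be tested were described, each with and without arthritic mouse 1, whose library sat near the naive ones.

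K/BxN serum carries antibodies to glucose-6-phosphate isomerase, an enzyme that coats the cartilage surface. The antibodies form immune complexes there, which engage complement and Fc gamma receptors on neutrophils, mast cells and macrophages. Interleukin 1, chemokines and proteases released by these cells and by synovial fibroblasts then drive swelling and the loss of cartilage and bone, without any need for T or B cells. The serum is a passive model, so the paw shows the effector phase of arthritis and not the break of tolerance that precedes it.

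The 8 libraries held between 6893969 (arthritic mouse 2) and 16205593 counts. The tissue was mixed: skeletal muscle took much of the counts, with 6 muscle markers that summed to between 57344 and 84401 CPM (counts scaled to a library total by the trimmed mean of M values) in the naive mice and to 73668, 28017, 34383 and 48219 CPM in arthritic mice 1 to 4. In bulk tissue, fewer cells of a type and less RNA per cell cannot be told apart. Synovial lubricin (Prg4) was plentiful in every library, between 5475 and 9862 CPM, and 5 T cell markers summed to at most 4.12 CPM. Naive mouse 4 held almost no epidermis, with 5 keratinocyte markers at 6.59 CPM in sum against up to 10414 CPM in the other naive mice. Arthritic mice 2 and 4 carried more counts in genes of olfactory, vomeronasal and taste receptors, which the paw is not known to use: the 1762 such genes summed to 518 and 222 CPM there, to 11.9 and 29.1 CPM in arthritic mice 1 and 3, and to between 11.2 and 16.2 CPM in the naive mice. More genes of any kind held a count in these 2 mice, 28937 and 30066. The number was 21922 and 22093 in arthritic mice 1 and 3 and between 21505 and 23111 in the naive mice. The part of muscle content, skin content, the receptor counts and these additional genes in the results was not tested. The long gene model Gm26917 took 1.63% to 2.39% of counts in the naive mice and 2.89%, 8.28%, 6.82% and 4.55% in arthritic mice 1 to 4.

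Chemokines, stromal proteases, macrophage genes and collagens were among the genes that rose in the arthritic paw, and muscle, mitochondrial and some cartilage genes were among those that fell. In the quasi-likelihood test of edgeR with Benjamini-Hochberg adjustment over all genes, 1721 genes (10.3% of those tested) were called at an adjusted p under 0.05, with 979 (5.87%) higher and 742 (4.45%) lower in arthritis. The groups did not overlap in 1152 of the called genes, and over all tested genes, called or not, in 12.5% (6.02% with every arthritic mouse above and 6.47% with every arthritic mouse below the naive mice). A change of at least 2-fold was seen in 575 of the higher and 225 of the lower genes. Without arthritic mouse 1 the calls rose to 4694 of 17271 genes (27.2%), with 2507 (14.5%) higher and 2187 (12.7%) lower. The smaller list lay almost wholly inside the larger one: 1715 genes were shared, 99.7% of the first list and 36.5% of the second, and all 1715 had the same direction. Single libraries weighed on the calls, which numbered 611, 412 and 664 without arthritic mouse 2, 3 or 4, and 720, 619, 888 and 469 without naive mouse 1, 2, 3 or 4. With only the 8 libraries compared in the fit, 435 of 15891 genes (2.74%) were called. Each of the 12 fits that left out 1 library still held 6F2 libraries. Only 351 of the 1721 genes lost their call in none of those 12 fits. The genes described in most detail below are from that set. For the others the highest adjusted p over those fits follows the words "at most", with the library that was left out. With arthritic mouse 3 as the only arthritic library, which was then assumed to vary as the other groups do, 3039 genes were called.

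How far arthritic mouse 1 lay from the naive mice depended on the direction of the change and, among rises, on its size. Of the 979 genes called higher, it lay above all 4 naive mice in 514 (52.5%), and of the 742 called lower it lay below all 4 in 650 (87.6%); over all tested genes the same held for 22.7% and 21.9%. Among the 575 genes called at least 2-fold higher it lay above all 4 in 277 (48.2%). Among the 48 called at least 8-fold higher it did so in 39 (81.2%). These calls used mouse 1, so the counts describe the list and do not test it. In the lower genes its log2 ratio to the naive mean, computed from CPM with 0.5 added, was at the median 0.45 of that of mice 2 to 4, and in the higher genes 0.22. Genes chosen without it showed the same order: among the 453 genes called at least 4-fold higher in mice 2 to 4, mouse 1 had a median log2 ratio of 0.17 against 1.91 and lay above the naive range in 35.8%, while among the 75 called at least 4-fold lower it had -0.80 against -1.78 and lay below the naive range in 68%. For comparison, each naive mouse lay above the other 3 in 13.7% to 31.6% of these higher genes and below them in 16% to 32% of these lower genes. The same 4 naive mice helped to choose these genes and set the naive range, so these shares are not a test either. In principal components of the 8 libraries, the first component (36.5% of the variance) placed the naive mice between -46 and -32 and arthritic mice 1 to 4 at -32.8, 81.3, 66.0 and 36.0.

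**Figure D1:**
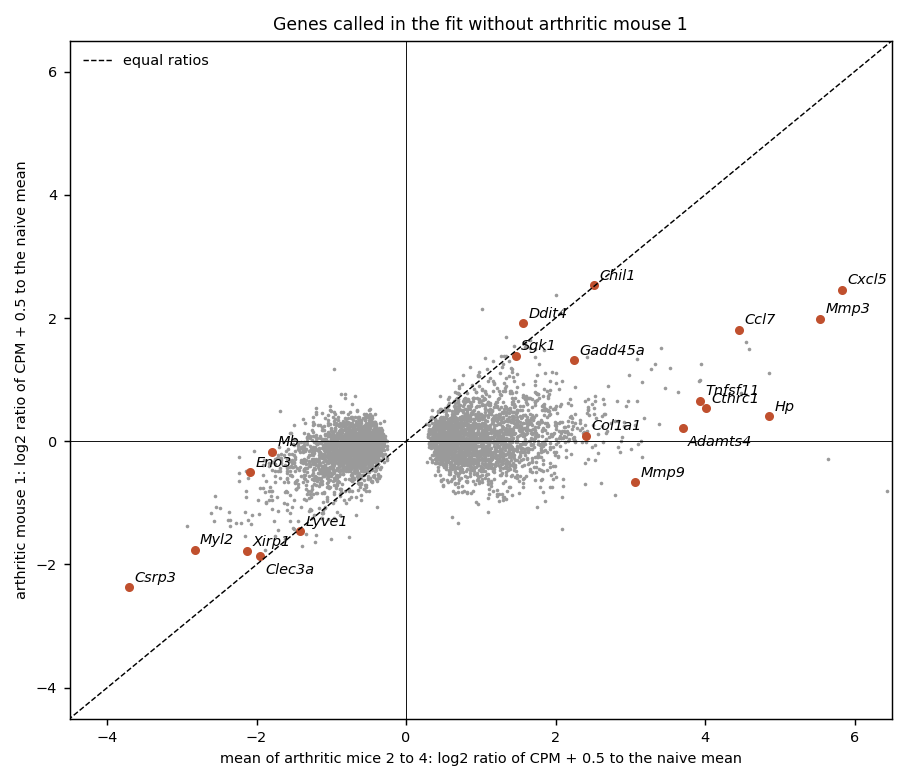
Each point is a gene called in the fit without arthritic mouse 1; the x axis gives the mean log2 ratio of arthritic mice 2 to 4 to the naive mean and the y axis that of arthritic mouse 1, both from CPM with 0.5 added, and the dashed line marks equal ratios. Most points lie near 0 on the y axis, and Sgk1, Ddit4, Chil1, Xirp1, Clec3a and Lyve1 lie near the line.

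Chemokine genes had some of the highest fold changes. The promoters of 2 of them and of an inhibitor of NF-kB are shown because the same short motif stands in all 3, and that of stromelysin because its gene rose most among the proteases. For Cxcl1, Cxcl2 and Nfkbia 150 bases are printed 5′ to 3′ on the gene's strand, from RefSeq on GRCm38.p6. Each stretch ends before the most upstream start in RefSeq or GENCODE, so those of Cxcl1 and Cxcl2 stop short of the RefSeq start. A match to the NF-kB motif, GGGA then any base then TTTCC, is in capitals. The motif was searched on both strands in the 250 bases before the RefSeq start, after the values had been seen. The 150 bases before Mmp3, the stromelysin gene, are printed with a match to the AP-1 motif TGACTCA in capitals.
Cxcl1 (chr5:90891091-90891240, + strand): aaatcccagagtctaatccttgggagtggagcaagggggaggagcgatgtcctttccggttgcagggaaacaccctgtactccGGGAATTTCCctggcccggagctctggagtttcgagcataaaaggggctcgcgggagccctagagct
Cxcl2 (chr5:90903721-90903870, + strand): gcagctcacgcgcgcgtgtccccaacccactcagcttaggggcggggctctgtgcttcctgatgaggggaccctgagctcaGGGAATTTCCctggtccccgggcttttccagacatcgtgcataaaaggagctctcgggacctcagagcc
Nfkbia (chr12:55492648-55492797, - strand): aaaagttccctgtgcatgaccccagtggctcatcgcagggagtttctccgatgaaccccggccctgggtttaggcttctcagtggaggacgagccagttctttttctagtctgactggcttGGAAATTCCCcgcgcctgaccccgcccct
Mmp3 (chr9:7445672-7445821, + strand): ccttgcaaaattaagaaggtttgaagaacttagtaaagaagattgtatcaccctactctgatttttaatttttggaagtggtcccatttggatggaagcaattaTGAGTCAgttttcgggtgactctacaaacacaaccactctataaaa
The match starts 71, 97, 29 and 46 bases before the RefSeq start of Cxcl1, Cxcl2, Nfkbia and Mmp3. The NF-kB motif was found in 0.356% of the 32851 promoters of the RefSeq table, before 51 of 11231 tested genes (0.454%), before 7 of 728 genes called higher (0.962%) and before 2 of 573 called lower (0.349%). The AP-1 motif was found in 4.46% of these promoters, before 4.33% of tested genes, before 3.98% of those called higher and before 5.93% of those called lower. Among genes called higher that had a promoter in the table, the NF-kB motif stood before 2 of 3 CXC chemokines and 2 of 9 NF-kB genes. It stood before 0 of 2 CC chemokines, 0 of 6 acute phase genes and 0 of 4 matrix metalloproteinases. The AP-1 motif stood before 2 of these 4 metalloproteinases, 2 of 9 NF-kB genes and 0 in the other lists. None of these shares is a test, and a match is a description of the letters only.

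Among the CXC chemokines, which recruit mainly neutrophils, 5 of 8 tested members rose and none fell, with a median log2 fold change of 1.82 against 0.03 over all tested genes. Cxcl5, a ligand of the neutrophil receptor CXCR2, was at 0.122, 0.211, 0.0703 and 0 CPM in naive mice 1 to 4 and at 2.81, 45.1, 37.7 and 18.1 CPM in arthritic mice 1 to 4 (log2 fold change 7.85 ± 1.04 SE, adjusted p = 0.00535). Cxcl1, another CXCR2 ligand, was at 0.122, 0.281, 0.211 and 0.46 CPM against 1.32, 10.8, 15.8 and 7.22 CPM (5.01 ± 0.75, adjusted p = 0.00602). For both genes arthritic mouse 1 was the lowest of its group and still above every naive mouse. Cxcl2 rose by 4.20 ± 0.91 (adjusted p = 0.0162, at most 0.0526 with naive 2 out) from levels of at most 0.153 CPM to 0.744, 2.63, 1.66 and 0.866 CPM. In lists like this one, where no member was called lower, at most 2 members were lower at an unadjusted p under 0.05 in edgeR and DESeq2 called at most 1. The calls here numbered 5 without arthritic mouse 1, 2 without arthritic mouse 3 and 3 without naive mouse 4. For this and every list below, the shares over all tested genes were 5.87% higher and 4.45% lower with all mice. Without arthritic mouse 1 those shares were 14.5% and 12.7%.

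The CC chemokines that attract monocytes rose with them: Ccl7, Ccl2, Ccl8 and Ccl9 were called higher and Ccl11 (eotaxin) lower among 10 tested members. Ccl7 was at 0.365, 0.492, 0.703 and 0.307 CPM in the naive mice and at 2.89, 15.6, 30.1 and 16 CPM in the arthritic mice (5.09 ± 0.67, adjusted p = 0.00503). Ccl2, the main ligand of CCR2, was at 1.03, 1.4, 1.05 and 1.07 CPM against 2.07, 9.19, 17.2 and 10.8 CPM (3.10 ± 0.48, adjusted p = 0.0062). Neither gene overlapped between the groups, and mouse 3 was the highest in both. Ccl11, which attracts eosinophils, fell by 1.52 on the log2 scale from between 9.89 and 16.2 CPM to 8.52, 0.919, 3.47 and 5.56 CPM (adjusted p = 0.0431, at most 0.128 with arthritic 3 out). All 4 rises were called in each of the 12 fits that left out 1 library. In limma-voom, an alternative test on the same 12 libraries, Ccl9 was called (adjusted p = 0.0347). There Ccl2, Ccl7 and Ccl8 missed the threshold (adjusted p = 0.0523, 0.0596 and 0.0676).

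**Figure D2:**
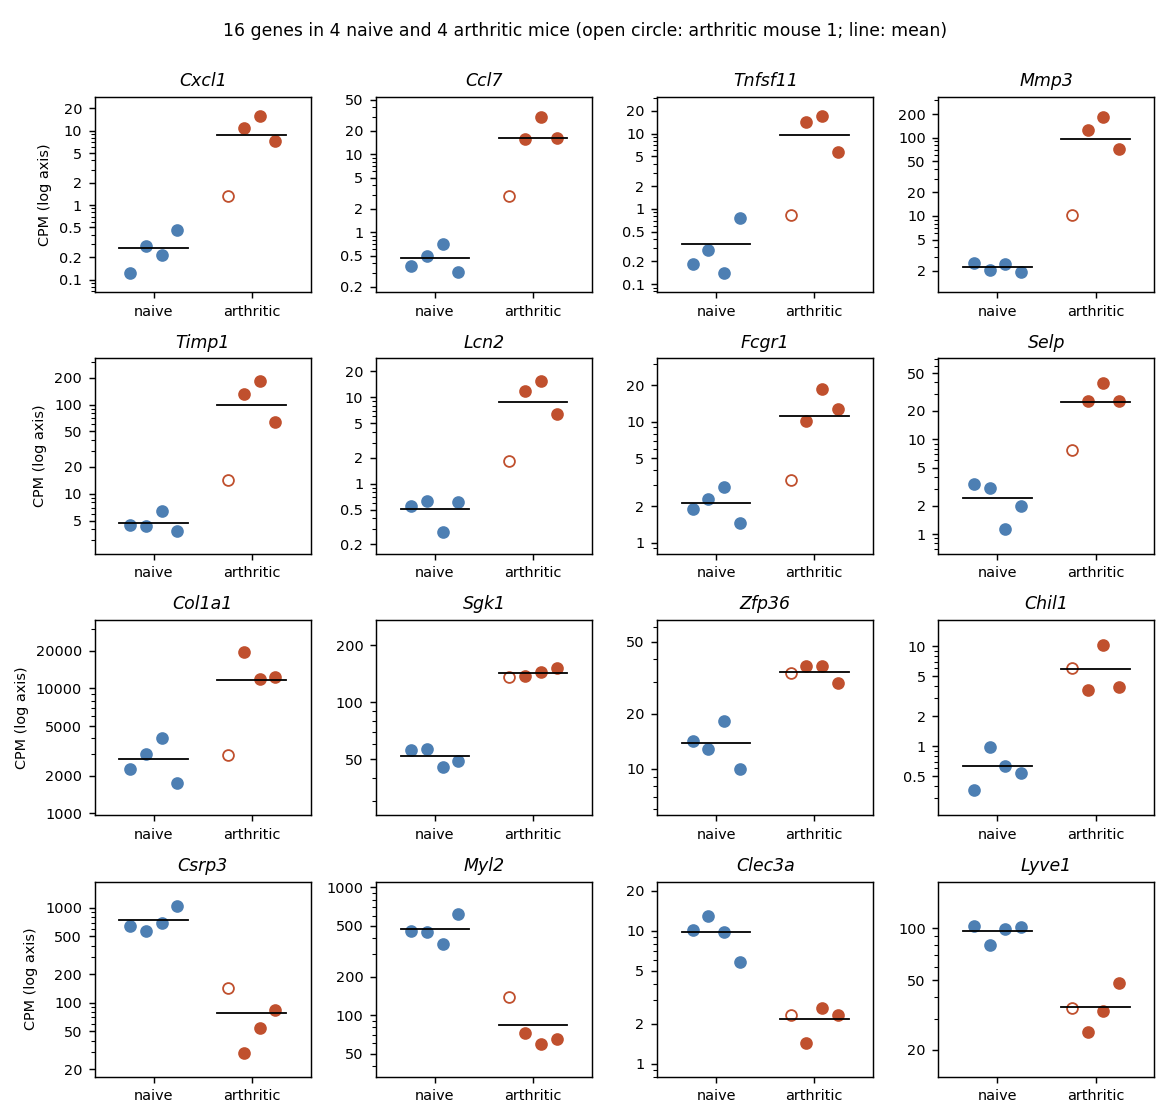
CPM of 16 genes on log axes in the 4 naive (blue) and 4 arthritic (red) mice, 1 point per mouse, with the line at the group mean and the open circle for arthritic mouse 1. In Cxcl1, Mmp3, Timp1 and Lcn2 arthritic mouse 1 lies between the naive mice and the other arthritic mice, in Col1a1 it lies among the naive mice, and in Sgk1, Zfp36, Chil1, Clec3a and Lyve1 it lies among the other arthritic mice.

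Interleukin 1 beta, which this arthritis needs, rose from almost nothing. Il1b had 1 count in the 4 naive mice together (0, 0.0702, 0 and 0 CPM) and was at 1.08, 9.98, 18.7 and 6.14 CPM in the arthritic mice, a ratio of 522 with a counting interval from 93.3 to 20686 (adjusted p = 0.00763). Its receptor Il1r1 rose by 1.22 ± 0.26 (adjusted p = 0.0169, at most 0.0584 with naive 4 out), and arthritic mouse 1, at 30 CPM, was just above the naive range of 22.6 to 29.5 CPM. In the list of the interleukin 1 family, 4 of 17 tested members rose and none fell, with 6 calls without arthritic mouse 1 and 1 without naive mouse 4. Il6 had too few counts to enter the test, with 6 in the naive mice, all in mouse 3 (0.422 CPM), and 0.248, 3.42, 5.67 and 1.81 CPM in the arthritic mice. Tnf stayed below 1.5 CPM in every library (log2 fold change 1.01 ± 0.64, adjusted p = 0.319). Il17a, Ifng and Csf2 were at or below 0.361 CPM throughout.

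Among genes of gp130 cytokines and their signalling 2 of 15 tested members rose and none fell, 13.3% called against 10.3% of all tested genes. Without arthritic mouse 1, 6 rose, where 14.5% of all tested genes were called higher. Socs3, which shuts down gp130 signalling, was at 22.8, 15.2, 24.2 and 20.7 CPM in the naive mice and at 34.7, 121, 142 and 103 CPM in the arthritic mice (2.27 ± 0.36, adjusted p = 0.0079), and its level in mouse 1 was above every naive mouse. Of 17 genes of NF-kB subunits and their inhibitors 11 rose and none fell, at a median log2 fold change of 1.01, and 13 rose without arthritic mouse 1. Nfkbiz, an inducible co-regulator, was at 10.8, 9.9, 11.2 and 9.27 CPM against 22.3, 43.9, 34.1 and 29.6 CPM (1.65 ± 0.20, adjusted p = 0.00258). Bcl3 (2.48 ± 0.45), Nfkb2 (1.40 ± 0.26), Relb (1.18 ± 0.23) and the inhibitor Nfkbia (1.01 ± 0.18) were called in every leave-one-out fit. Rela and Nfkb1, the subunits of the classical dimer, differed by 0.11 and 0.15 and were not called. The fewest calls in the list were 6, without arthritic mouse 3.

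Of the 6 Toll-like receptor and adaptor genes that rose, Tlr2 had the smallest adjusted p. It was at 6.7, 5.97, 8.37 and 7.51 CPM in the naive mice and at 8.27, 23.1, 23 and 19.3 CPM in the arthritic mice (1.36 ± 0.27, adjusted p = 0.0119). Arthritic mouse 1 lay inside the naive range. In this list 6 of 17 tested members rose and none fell, 9 rose and 1 fell without arthritic mouse 1, and 2 rose without arthritic mouse 3 or without naive mouse 4. Ptgs2, the inducible cyclooxygenase, rose by 3.06 ± 0.67 (adjusted p = 0.0178, at most 0.0644 with arthritic 3 out), and mouse 1, at 0.744 CPM, lay within the naive values of 0.383 to 0.852 CPM. Among receptors for cytokines of T helper cells, Il2rg, the common gamma chain, rose by 3.12 ± 0.57 (adjusted p = 0.00979). Lymphocyte genes were low. In edgeR none of 3 tested T and NK cell markers was called with all mice (1 at an unadjusted p under 0.05, 1 in DESeq2, and Il7r without arthritic mouse 1, at 1.92 with an adjusted p of 0.0221), and none of 5 B and plasma cell markers (0 at an unadjusted p under 0.05 and 0 in DESeq2).

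Acute phase and antiprotease genes, made in the inflamed tissue itself, rose in 8 of 13 tested members, at a median of 2.19, and none fell; without arthritic mouse 1, 9 rose and 1 fell, and without naive mouse 4, 6 rose. Lcn2, the siderophore binder lipocalin 2, was at 0.548, 0.632, 0.281 and 0.613 CPM in the naive mice and at 1.82, 11.8, 15.6 and 6.35 CPM in the arthritic mice (4.07 ± 0.66, adjusted p = 0.00753). For Lcn2 all arthritic mice lay above all naive mice. Haptoglobin (Hp) rose by 4.58 ± 0.94 (adjusted p = 0.0205, at most 0.0669 with naive 4 out), with 381 CPM in mouse 3 and 8.1 CPM in mouse 1. Saa3, the serum amyloid gene of macrophages and stroma, had no count in the naive mice and reached 0.579, 15.1, 19.4 and 7.36 CPM, at least 50.9-fold higher against a floor of 3 counts per library; reads shared with its near-identical relatives make this value uncertain. Slpi, a secreted inhibitor of neutrophil elastase, rose by 4.83 ± 0.90 (adjusted p = 0.0117).

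Some enzymes that break down cartilage matrix rose, with stromelysin at the highest fold change of the matrix metalloproteinases. Mmp3 was at 2.5, 2.04, 2.46 and 1.92 CPM in the naive mice and at 10.3, 124, 184 and 70.8 CPM in the arthritic mice (5.44 ± 0.79, adjusted p = 0.00807). Adamts4, an aggrecanase, was at 1.34, 1.12, 1.12 and 0.996 CPM against 1.41, 25.6, 26 and 11.3 CPM (3.79 ± 0.70, adjusted p = 0.0119, and 0.126 in limma-voom). Mouse 1 was above the naive range by a wide margin in Mmp3 and only just above it in Adamts4. Of 13 tested matrix metalloproteinases 6 rose and none fell, with 7 without arthritic mouse 1 and 2 without naive mouse 4; of 21 ADAMTS proteases 4 rose and 1 fell, with 7 and 1 without arthritic mouse 1. Mmp9, the gelatinase of neutrophils and osteoclasts, missed the threshold with all mice (2.70, adjusted p = 0.0625) and was called without mouse 1 (3.07, adjusted p = 0.00513); its level was 13.3 CPM in mouse 1 and 343, 140 and 60.6 CPM in mice 2 to 4.

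The inhibitors of these enzymes moved apart. Timp1 was at 4.44, 4.35, 6.4 and 3.83 CPM in the naive mice and at 14.2, 132, 183 and 64.6 CPM in the arthritic mice (4.37 ± 0.66, adjusted p = 0.00843). Timp3, the matrix-bound inhibitor of aggrecanases, fell by 0.55 on the log2 scale from between 172 and 230 CPM to 184, 116, 128 and 131 CPM (adjusted p = 0.0478, at most 0.131 with arthritic 3 out). Tnfaip6, a hyaluronan-binding protein induced by TNF and interleukin 1, rose by 4.39 ± 0.82 (adjusted p = 0.0152, at most 0.0526 with naive 4 out), with 3.89 CPM in mouse 1 against up to 3.17 CPM in the naive mice. In the hyaluronan list 5 of 16 members rose and 1 fell, and without naive mouse 4 none rose and 1 fell.

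Macrophage genes rose: 5 macrophage markers summed to between 233 and 250 CPM in the naive mice and to 203, 491, 432 and 424 CPM in arthritic mice 1 to 4. Of 22 markers of recruited monocytes and macrophages 15 rose and none fell (18 without arthritic mouse 1, 7 without arthritic mouse 3), while of 19 markers of resident synovial macrophages 4 rose and 2 fell (9 and 3 without arthritic mouse 1, 0 and 2 without naive mouse 4). Fcgr1, the high-affinity IgG receptor, was at 1.89, 2.32, 2.88 and 1.46 CPM in the naive mice and at 3.31, 10.1, 18.6 and 12.7 CPM in the arthritic mice (2.38 ± 0.44, adjusted p = 0.0103). Mpeg1, a pore-forming protein of phagocytes, was at 7.43, 10.1, 10.3 and 7.13 CPM against 13.6, 38.1, 47.5 and 36.9 CPM (1.96 ± 0.34, adjusted p = 0.00964). Both were higher in every arthritic mouse than in any naive mouse. Lyve1, found on resident macrophages and on lymphatic vessels, fell by 1.44 on the log2 scale, from 103, 80.3, 99.1 and 101 CPM to 34.6, 25.1, 33.4 and 48.2 CPM (adjusted p = 0.0131). In Lyve1 arthritic mouse 1 stood among the other arthritic mice.

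Neutrophil transcripts were few. The 6 neutrophil markers summed to between 0.984 and 6.81 CPM in the naive mice and to 7.28, 36.9, 20.9 and 14.5 CPM in arthritic mice 1 to 4. Cxcr2 and Csf3r were called among these 6 markers, and S100a8 and S100a9 were not (adjusted p = 0.263 and 0.148 in edgeR). Ly6g and Retnlg had too few counts to enter the test. Of 16 tested neutrophil genes 6 rose and none fell, with 8 and 1 without arthritic mouse 1 and 4 and 0 without arthritic mouse 3. Clec4d, a C-type lectin of myeloid cells, was at 0.426, 0.281, 0.492 and 0.383 CPM in the naive mice and at 1.24, 6.83, 10.2 and 5.42 CPM in the arthritic mice (3.87 ± 0.58, adjusted p = 0.00535). Cxcr2, the receptor for Cxcl1 and Cxcl5, was at 0.0609, 0.14, 0.141 and 0.0766 CPM against 0.414, 5.52, 2.57 and 1.81 CPM (4.49 ± 0.84, adjusted p = 0.0103). Acod1, which makes itaconate, had 1 count in the naive mice and a count ratio of 108 with an interval from 18.8 to 4303 (adjusted p = 0.0106). Trem1 had no count in the naive mice and 88 in the arthritic mice, at least 9.22-fold higher, and entered the test only without mouse 1. Of 5 tested granule genes of marrow precursors only Chil1 was called.

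Fc gamma receptors and the Syk pathway behind them link the immune complexes to the myeloid cell. In edgeR with all mice this list held the highest share of called members among the lists plotted. Here 12 of 17 tested members rose and none fell, at a median of 1.09. The calls numbered 16 without arthritic mouse 1, 3 without arthritic mouse 3 and 6 without naive mouse 4. DESeq2 called 15 of the 17 and limma-voom 4. In limma-voom 7 of 17 NF-kB genes and 8 of 22 markers of recruited monocytes and macrophages were called. Vav1, the exchange factor downstream of Syk, was at 6.88, 7.87, 7.24 and 8.58 CPM in the naive mice and at 8.1, 20.2, 28.6 and 22.4 CPM in the arthritic mice (1.38 ± 0.28, adjusted p = 0.0137). The inhibitory receptor Fcgr2b rose by 1.88 ± 0.41 (adjusted p = 0.019, at most 0.064 with naive 4 out), as did the kinase Fgr, by 2.59 ± 0.54 (adjusted p = 0.0153, at most 0.0503 with arthritic 3 out). Mouse 1, at 8.1 CPM of Vav1, did not leave the naive range. Sirpa, the receptor that 6F2 binds, was at 69.9, 72.3, 87.5 and 64 CPM against 62.9, 155, 172 and 123 CPM (0.80 ± 0.23, adjusted p = 0.0448); its call was lost in 11 of 12 leave-one-out fits (at most 0.138 with arthritic 3 out) and held without arthritic mouse 1 (1.02, adjusted p = 8.09e-05). Its ligand Cd47 differed by 0.26 and was not called with all mice (adjusted p = 0.253), and was called without arthritic mouse 1 (0.38, adjusted p = 0.0281).

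Some complement and interferon genes rose. Cfb, factor B of the alternative pathway, was at 2.68, 1.55, 1.97 and 2.15 CPM in the naive mice and at 3.64, 11.2, 13.4 and 9.24 CPM in the arthritic mice (2.16 ± 0.41, adjusted p = 0.0103). C3, on which all complement pathways meet, was at 185, 185, 143 and 166 CPM against 197, 443, 564 and 517 CPM (1.34 ± 0.26, adjusted p = 0.0107). Both were called in every leave-one-out fit, and mouse 1 was above the naive range in both. Cd55, which shields cells from complement and marks lining fibroblasts, fell by 1.14 (adjusted p = 0.0189, at most 0.0654 with arthritic 3 out). In the complement list 5 of 21 members rose and 1 fell, against 12 and 2 without arthritic mouse 1, and 2 rose without arthritic mouse 2, 3 or 4 or naive mouse 4. Of 24 interferon-stimulated genes 10 rose and none fell (17 without arthritic mouse 1, 3 without arthritic mouse 3), among them the antiviral sensor Zbp1 (2.35 ± 0.47, adjusted p = 0.0121) and Oasl2 (1.88 ± 0.38, adjusted p = 0.0134). Of 12 tested guanylate-binding proteins 0 rose and 1 fell (8.33% called, against 10.3% of all tested genes), at a median of 0.04. The member that fell was Gbp10, by 2.52 (adjusted p = 0.0164, at most 0.0519 with arthritic 2 out).

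**Figure D3:**
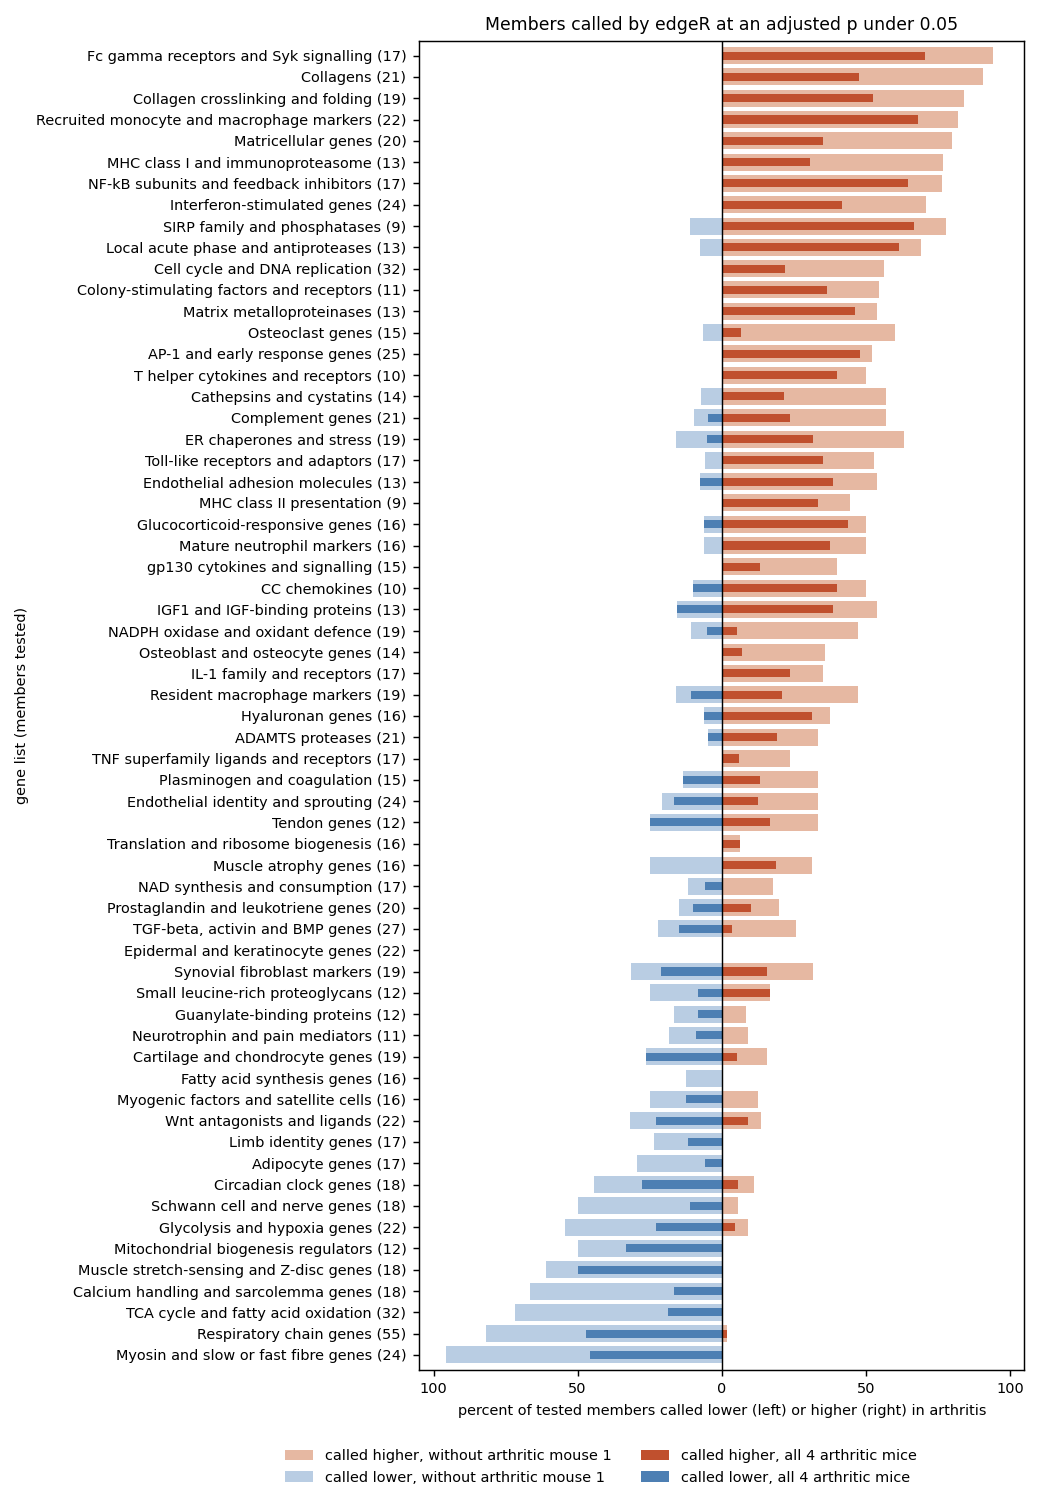
For each gene list with at least 9 tested members, bars give the percent of tested members called lower (blue, to the left) or higher (red, to the right) in arthritis, dark for all 4 arthritic mice and pale without arthritic mouse 1. Over all tested genes 5.87% were called higher and 4.45% lower with all mice, and 14.5% and 12.7% without arthritic mouse 1.

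Collagen genes rose in arthritic mice 2 to 4 and lay near the naive level in arthritic mouse 1. Col1a1, the main chain of type I collagen, was at 2267, 2967, 3997 and 1734 CPM in the naive mice and at 2927, 19663, 11860 and 12322 CPM in the arthritic mice (2.09 ± 0.45, adjusted p = 0.0165, at most 0.0556 with naive 4 out). Cthrc1, a secreted protein of activated fibroblasts, was at 2.98, 2.46, 3.09 and 2.45 CPM against 4.22, 61.9, 53.8 and 39.4 CPM (3.85 ± 0.63, adjusted p = 0.00983; without mouse 1 4.21, adjusted p = 1.8e-08). Mouse 1 was inside the naive range for Col1a1 and slightly above it for Cthrc1. Of 21 collagens 10 rose and none fell, 19 rose without arthritic mouse 1, and 1 rose without naive mouse 4, while the fit without both of these mice called 19. Of 19 genes of collagen folding and crosslinking 10 rose (16 without arthritic mouse 1, 1 without naive mouse 4), among them the collagen chaperone Serpinh1 (2.08 ± 0.39, adjusted p = 0.0119). Collagens took 0.594% to 1.18% of all counts in the naive mice and 0.851%, 5.56%, 3.78% and 3.22% in the arthritic mice.

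Fibroblast markers did not rise as a block. Pdpn, podoplanin, was at 10.6, 11.9, 17.7 and 10.6 CPM in the naive mice and at 19.4, 59.8, 69.2 and 51 CPM in the arthritic mice (1.97 ± 0.32, adjusted p = 0.00763). Tspan15 was at 31.6, 33.6, 35.3 and 34 CPM against 18.4, 15.5, 14.3 and 21.4 CPM, a fall by 0.95 on the log2 scale (adjusted p = 0.00503). The groups overlapped in neither gene, and in Tspan15 mouse 1 was within the range of the other arthritic mice. In the list of 19 synovial fibroblast markers 3 rose and 4 fell, with 6 and 6 without arthritic mouse 1, 1 and 2 without arthritic mouse 2, and 1 and 1 without arthritic mouse 3. Prg4, lubricin, differed by -0.36 ± 0.20 and was not called (adjusted p = 0.269). Of 20 matricellular genes 7 rose and none fell (16 without arthritic mouse 1, 4 without naive mouse 4), with Ccn1 at 30.1, 24.7, 30.9 and 25.9 CPM in the naive and 48.5, 95.6, 113 and 73.9 CPM in the arthritic mice (1.57 ± 0.22, adjusted p = 0.00535).

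Several cartilage genes fell, with 5 of 19 called lower and 1 higher (3 higher and 5 lower without arthritic mouse 1; none higher and 3 lower without arthritic mouse 3). Clec3a, a lectin-like protein of cartilage, was at 10.2, 13, 9.84 and 5.83 CPM in the naive mice and at 2.32, 1.44, 2.64 and 2.31 CPM in the arthritic mice, a fall by 2.14 on the log2 scale (adjusted p = 0.00668). Cytl1, a cytokine-like protein of chondrocytes, fell by 1.50 (adjusted p = 0.00535) and Col10a1, the collagen of hypertrophic cartilage, by 1.49 (adjusted p = 0.00964). All 3 were called in every leave-one-out fit, and arthritic mouse 1 lay below every naive mouse in each. Acan, the core protein of aggrecan, was the member that rose: it was at 46.9, 51.2, 44 and 37.7 CPM against 32.5, 184, 175 and 117 CPM (1.50 ± 0.42, adjusted p = 0.0466; at most 0.131 with arthritic 3 out; without arthritic mouse 1 1.81, adjusted p = 2.1e-05). Col2a1 differed by -0.11 ± 0.47 with all mice, by 0.11 without arthritic mouse 1 and by -0.69 without arthritic mouse 2, and was called in none of these. The joint protein Cilp, of the middle cartilage zone, was at 413, 360, 393 and 372 CPM against 221, 221, 215 and 238 CPM and fell by 0.78 (adjusted p = 0.00602).

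The gene of RANKL, the factor that osteoclasts need, rose. This gene, Tnfsf11, was at 0.183, 0.281, 0.141 and 0.766 CPM in the naive mice and at 0.827, 14.3, 17.1 and 5.7 CPM in the arthritic mice (4.78 ± 0.85, adjusted p = 0.0103). Mouse 1 was close to the highest naive mouse, and the other arthritic mice were well above both. Its decoy receptor Tnfrsf11b, osteoprotegerin, differed by -0.51 ± 0.23 and was not called (adjusted p = 0.162). Of 15 osteoclast genes 1 (6.67%) was called with all mice, near the 5.87% of all tested genes called higher. It was the proton pump gene Tcirg1 (1.21, adjusted p = 0.0457, at most 0.13 with arthritic 3 out). None of the 15 was called without arthritic mouse 2, 3 or 4 or naive mouse 4. Without arthritic mouse 1, 9 rose and 1 fell, among the former the collagenase Ctsk (57.3 CPM in mouse 1, then 374, 180 and 131 CPM, against 40.2 to 89.1 CPM in the naive mice; without mouse 1 1.82, adjusted p = 0.00456). The 5 osteoclast markers summed to between 51.8 and 114 CPM in the naive mice and to 72.3, 494, 241 and 164 CPM in arthritic mice 1 to 4. Of 27 genes of TGF-beta, activin and BMP signalling 4 fell and 1 rose (6 and 7 without arthritic mouse 1, 3 and 0 without arthritic mouse 3). Tgfb2 was at 85, 97.5, 79.7 and 107 CPM against 57.8, 46, 39.8 and 38.3 CPM (a fall by 1.02, adjusted p = 0.005), Bmp4 fell by 0.81 (adjusted p = 0.0103) and Bmp6 by 0.91 (adjusted p = 0.0119).

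Among 13 endothelial adhesion genes 5 rose and 1 fell (7 and 1 without arthritic mouse 1; 2 and 0 without arthritic mouse 2, 3 or 4 or naive mouse 4), at a median of 0.41. Selp, P-selectin, on which leukocytes roll, was at 3.35, 3.09, 1.12 and 1.99 CPM in the naive mice and at 7.77, 25.2, 39.7 and 25.5 CPM in the arthritic mice (3.35 ± 0.54, adjusted p = 0.00833). Apln, a peptide of sprouting endothelium, was at 1.1, 1.55, 0.844 and 0.996 CPM against 3.14, 22.2, 15.6 and 7.58 CPM (3.42 ± 0.51, adjusted p = 0.00535). In both, mouse 1 was intermediate and above every naive mouse. Vcam1 rose by 1.99 ± 0.49 (adjusted p = 0.0318, at most 0.0908 with arthritic 3 out), with 7.69 CPM in mouse 1 and 34.6 to 38.7 CPM in mice 2 to 4. The tight junction gene Cldn5 fell by 0.92, from between 8.5 and 10.8 CPM to 5.04, 4.07, 5.51 and 5.2 CPM (adjusted p = 0.00964). Npy, neuropeptide Y of sympathetic nerves, fell by 2.00 on the log2 scale, from 3.1, 1.83, 2.88 and 3.14 CPM to 0.496, 0.657, 0.755 and 0.794 CPM (adjusted p = 0.00753).

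Muscle genes fell unevenly, and arthritic mouse 1 shared part of the fall. Csrp3, a Z-disc protein of slow and stretched fibres, was at 639, 575, 696 and 1050 CPM in the naive mice and at 142, 29.9, 53.9 and 84.3 CPM in the arthritic mice, a fall by 3.25 on the log2 scale (adjusted p = 0.00535). Myl2, the slow myosin light chain, was at 454, 445, 358 and 616 CPM against 138, 72.8, 59.2 and 64.5 CPM (a fall by 2.48, adjusted p = 0.00258). Xirp1, an actin-binding repeat protein of loaded muscle, was at 528, 368, 457 and 854 CPM against 160, 122, 119 and 136 CPM (a fall by 2.04, adjusted p = 0.005). In each of these the groups were far apart and mouse 1 was the highest of the arthritic mice. The 6 muscle markers in the sum above differed by between -1.31 (Mylpf, a fast myosin light chain) and -0.18 with all mice, with adjusted p-values of at least 0.0645 in edgeR. Without arthritic mouse 1 Mylpf was called (-1.91, adjusted p = 0.00122), as was Ckm, creatine kinase (-0.62, adjusted p = 0.0405; -0.32 with all mice). Of 24 myosin and fibre-type genes 11 fell (23 without arthritic mouse 1, 7 without arthritic mouse 3), and of 18 Z-disc and stretch genes 9 fell (11 without arthritic mouse 1, 4 without naive mouse 4), with none higher in either list.

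Mitochondrial genes fell in large numbers by small amounts. Of 55 tested respiratory chain genes 26 fell and 1 rose, at a median of -0.62; 45 fell and 1 rose without arthritic mouse 1, and 3 fell without arthritic mouse 3 or without naive mouse 4. Ndufb5, a complex I subunit, was at 69.6, 69.1, 71.8 and 76.7 CPM in the naive mice and at 50.2, 29.3, 31.3 and 43.5 CPM in the arthritic mice (a fall by 0.89, adjusted p = 0.00883). Uqcr10, of complex III, was at 54, 54.8, 47.7 and 66.4 CPM against 34.6, 13.5, 20.4 and 24.7 CPM (a fall by 1.25, adjusted p = 0.0108). Mouse 1 was lower than all naive mice in both. Ppargc1a, the co-activator of mitochondrial biogenesis, fell by 1.35 (adjusted p = 0.0177, at most 0.0626 with arthritic 3 out), and its muscle partner Perm1 by 2.12 (adjusted p = 0.0176, at most 0.0554 with arthritic 2 out). Of 32 genes of the citric acid cycle and fatty acid oxidation 6 fell with all mice, 23 without arthritic mouse 1, 1 without arthritic mouse 2 or 4, and none without arthritic mouse 3 or naive mouse 4. Of 22 glycolysis and hypoxia genes 5 fell and 1 rose (12 and 2 without arthritic mouse 1; 2 and 0 without arthritic mouse 2, 3 or 4 or naive mouse 4); the muscle enzyme Tpi1 fell by 1.16 (adjusted p = 0.0131), while Hif1a rose by 1.03 ± 0.28 (adjusted p = 0.0401, at most 0.12 with arthritic 3 out). The muscle marker sum fell over the same mice, from 57344 CPM or more to 28017, 34383 and 48219 CPM in arthritic mice 2 to 4, and its part in these falls was not tested.

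Some stress-response genes were as high in arthritic mouse 1 as in the others. Sgk1, a kinase induced by glucocorticoids and osmotic stress, was at 56, 56.4, 45.6 and 49.2 CPM in the naive mice and at 136, 137, 145 and 151 CPM in the arthritic mice (1.46 ± 0.17, adjusted p = 0.00258). Ddit4, an inhibitor of mTOR, was at 10.6, 8.71, 8.51 and 7.05 CPM against 34.5, 31.4, 30.8 and 17.9 CPM (1.71 ± 0.20, adjusted p = 0.00258). Cebpd, a transcription factor of the acute phase, was at 29.9, 25.2, 25.9 and 35.6 CPM against 67, 67.3, 88 and 78.5 CPM (1.37 ± 0.21, adjusted p = 0.00535). Mouse 1 lay close to mouse 2 in each, and the groups did not overlap. In the list of 16 glucocorticoid-responsive genes 7 rose and 1 fell, 8 and 1 without arthritic mouse 1 and 4 and 0 without arthritic mouse 3; the receptor Nr3c1 was the member that fell (by 0.64, adjusted p = 0.027, at most 0.0894 with arthritic 3 out). The list's mean log2 level lay 0.68, 0.67, 0.92 and 0.77 above the naive mean in arthritic mice 1 to 4.

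In Zfp36 and Fos, from the list of early response genes, mouse 1 was also close to the other arthritic mice, while the mean log2 level of the whole list lay 0.42, 1.06, 0.83 and 0.59 above the naive mean in arthritic mice 1 to 4. Zfp36, tristetraprolin, which destabilises cytokine mRNA, was at 14.1, 12.8, 18.3 and 9.96 CPM in the naive mice and at 33.7, 36.6, 36.6 and 29.8 CPM in the arthritic mice (1.31 ± 0.19, adjusted p = 0.00532). Fos, an AP-1 subunit, was between 11 and 19.9 CPM in the naive mice and at 82, 90.9, 50.8 and 49.7 CPM in the arthritic mice (2.14 ± 0.47, adjusted p = 0.0229, at most 0.0725 with naive 2 out). In neither gene did mouse 1 stand apart from the other arthritic mice. Of 25 AP-1 and early response genes 12 rose and none fell, with 13 without arthritic mouse 1 and 4 without arthritic mouse 3. Gadd45a, a growth arrest gene that also marks muscle atrophy, was at 18.6, 21.8, 21.7 and 18.4 CPM against 51.1, 55.2, 144 and 94.6 CPM (2.1 ± 0.31, adjusted p = 0.0062). Chil1, a chitinase-like protein of macrophages and neutrophils, was at 0.365, 0.983, 0.633 and 0.537 CPM against 6.04, 3.68, 10.2 and 3.9 CPM (3.23 ± 0.52, adjusted p = 0.00699), and mouse 1 was the second highest.

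**Figure D4:**
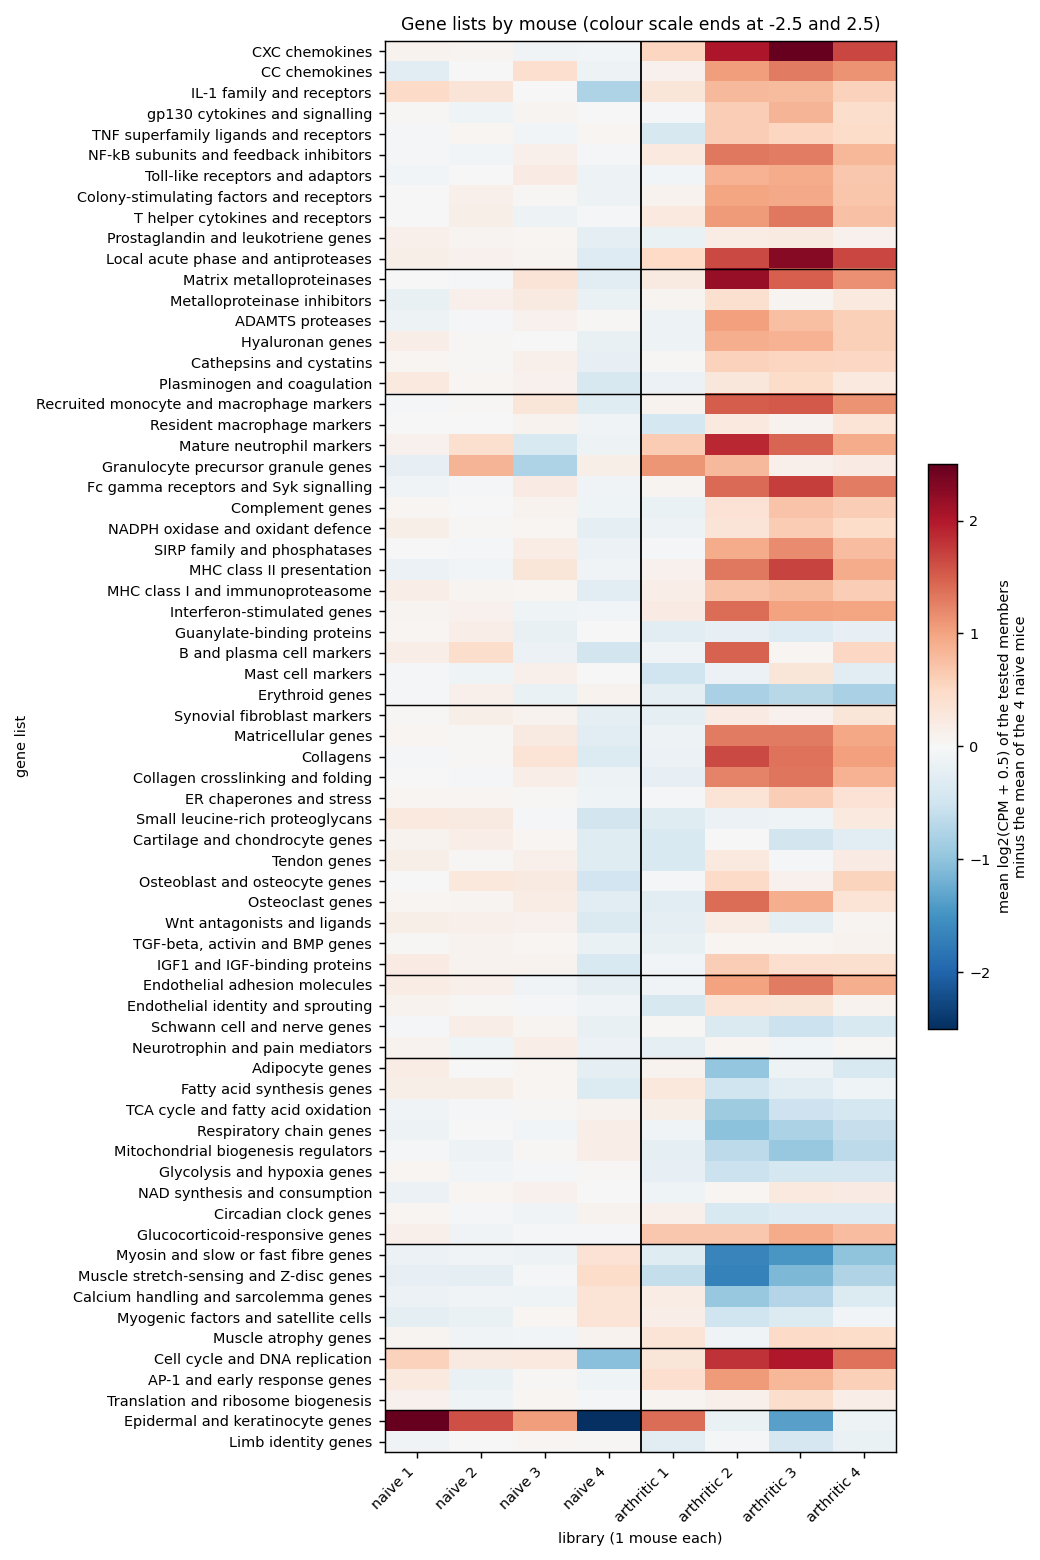
Rows are gene lists with at least 5 tested members and columns are the 8 mice; colour gives the mean log2 level (CPM with 0.5 added) of the tested members minus the mean of the 4 naive mice, red for higher and blue for lower, with the scale ending at 2.5. In the column of arthritic mouse 1 the strongest colours are those of the epidermal (1.40) and granule genes (1.10), then the glucocorticoid-responsive genes (0.68), mature neutrophil markers (0.63) and Z-disc genes (-0.60). The epidermal row stands at 2.53, 1.62, 1.05 and -5.20 in naive mice 1 to 4, dark blue in mouse 4, which lowers the naive mean. Arthritic mouse 1 lies inside the naive range in that row.

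Clock genes were called mostly lower. Arntl, the BMAL1 gene, was at 27.8, 21.9, 19.6 and 30.9 CPM in the naive mice and at 14.4, 11.7, 9.82 and 8.95 CPM in the arthritic mice (a fall by 1.16, adjusted p = 0.00808). Nr1d1, the REV-ERB alpha gene that represses Arntl, was at 210, 198, 187 and 216 CPM against 154, 73.2, 80.7 and 92.3 CPM (a fall by 1.02, adjusted p = 0.0104). The groups were apart in both genes. Of 18 clock genes 5 fell and 1 rose (8 and 2 without arthritic mouse 1; 2 fell and none rose without arthritic mouse 3). No source used here gives the hour at which each paw was taken.

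Some replication genes rose. Mcm7, of the replicative helicase, was at 6.27, 5.69, 6.33 and 4.52 CPM in the naive mice and at 11.1, 13, 21.5 and 10.8 CPM in the arthritic mice (1.30 ± 0.23, adjusted p = 0.00852). All arthritic mice, mouse 1 included, were above all naive mice. Of 32 cell cycle genes 7 rose and none fell, with 18 without arthritic mouse 1 and 1 without naive mouse 4, while Mki67 differed by 0.94 ± 0.87 and was not called (adjusted p = 0.521). Mki67 was at 132, 97.5, 77.5 and 7.13 CPM in naive mice 1 to 4, and naive mouse 4 was also the mouse with almost no keratinocyte markers; the part of epidermal content in this list was not tested. None of 22 tested epidermal genes was called by edgeR, with 0 at an unadjusted p under 0.05 and 0 in DESeq2. Tfrc, the transferrin receptor, was the only called gene of the erythroid list, at 250, 288, 234 and 366 CPM in the naive mice and 112, 72.4, 57.8 and 70.3 CPM in the arthritic mice (a fall by 1.86, adjusted p = 0.005).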

How the data were processed

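Total RNA of whole paws was extracted with a Qiagen RNeasy kit and made into libraries with the TruSeq Stranded kit for total RNA from Illumina, as the labels' protocols state. The values are whole-number counts of reads per Ensembl gene, deposited by the authors without normalization, and the submitters' processing notes name build GRCm38. The aligner, counter and strand setting were not given in the sources used here, so antisense, overlapping and near-identical genes are uncertain. Of 52636 identifiers 52489 were found in GENCODE M21, and 16168 had no count in the 8 libraries.

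Counts were analysed in R 4.3.3 with edgeR 4.0.16: genes were filtered with filterByExpr, libraries were scaled by the trimmed mean of M values (TMM), and a robust quasi-likelihood model with 1 coefficient per group was fitted to all 12 libraries, with a biological coefficient of variation of 0.334. Adjusted p-values are Benjamini-Hochberg over all genes in the test, called when under 0.05. CPM are the usual library-scaled counts, with TMM factors applied, and the floor used for a gene at 0, 3 counts, lay at 0.183 to 0.394 CPM; the floor and the 95% intervals of count ratios cover counting error only. The script was tested on simulated counts. Libraries of 1 group differed from each other by more than sampling noise in every pair. Alternatives were DESeq2 1.42.0, limma-voom 3.58.1, other scalings and filters, other sets of libraries, and the replicate number as a block.

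The comparison and its 70 gene lists were chosen with earlier results of these data known. Genes were named by a rule: the 15 highest and 15 lowest fold changes among called genes whose groups did not overlap, with a mean log2 CPM of at least 0, up to 5 members of each list with the smallest p, the 10 highest and 10 lowest called only without arthritic mouse 1, and defining genes of a list whether called or not. Genes named outside the rule, such as Fos, Fcgr2b, Nr3c1, Hif1a, Saa3, Trem1, Rela and Nfkb1, were chosen from the lists after their values were seen. Promoter bases were taken from RefSeq and not from the libraries. No other per-sample columns were used.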

Additional observations from a re-analysis of the deposited data

Results flagged for a closer look

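In 396 groups of 4 mice checked, covering the genes named here, 26 had 1 mouse far from the other 3 by Dixon's criterion. Chance alone flags about 1 in 20 of independent groups. The genes here were partly chosen by their values and share the same 8 mice, so the 26 cannot be judged against that rate. Of the 26, 8 were arthritic mouse 1, 7 naive mouse 4, 5 naive mouse 2, 4 naive mouse 3, 1 arthritic mouse 4 and 1 naive mouse 1.

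Arthritic mouse 1 was far below mice 2 to 4 in 5 genes that rose or were called without it. Vcam1, an adhesion molecule of endothelium and fibroblasts, was at 7.69 CPM against 34.6 to 38.7 CPM, and Postn, periostin, at 74.4 CPM against 316 to 352 CPM. The interferon-stimulated genes Oasl2 and Oas2 were at 3.97 CPM (others 15.3 to 16.7 CPM) and 1.82 CPM (others 5.06 to 5.42 CPM). Lyz2, lysozyme of myeloid cells, was at 198 CPM against 322 to 347 CPM. The same mouse was far above the others in 3 genes that fell: the slow troponin Tnni1 at 243 CPM (others 115 to 127 CPM), Ppargc1a at 35 CPM (others 15.2 to 17.3 CPM) and the Wnt inhibitor Sfrp5 at 12 CPM (others 5.97 to 6.7 CPM).

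Naive mouse 4, which had almost no keratinocyte markers, was above the other naive mice in myoglobin (Mb, 5704 CPM, others 4139 to 4217 CPM), the glucose transporter Slc2a4 (281 CPM, others 213 to 222 CPM), the clock gene Cry2 (166 CPM, others 131 to 134 CPM), Tsc22d3 (125 CPM, others 85.3 to 91.1 CPM) and Wnt10b (9.81 CPM, others 6.12 to 6.74 CPM). It was below them in Col2a1 (8.81 CPM, others 17.9 to 19.3 CPM) and the osteoclast gene Atp6v0d2 (2.76 CPM, others 4.5 to 4.57 CPM).

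Naive mouse 2 held the only naive count of Il1b and of Acod1 (0.0702 CPM each), was above the others in Adam12 (4.42 CPM, others 3.53 to 3.59 CPM) and Ccl2 (1.4 CPM, others 1.03 to 1.07 CPM), and was below them in Lyve1 (80.3 CPM, others 99.1 to 103 CPM). Naive mouse 3 was above the others in Col5a2 (432 CPM, others 298 to 302 CPM), the lysosomal protease Ctss (128 CPM, others 75 to 81.8 CPM), Fcgr2b (13.4 CPM, others 8.01 to 8.58 CPM) and Mmp19 (10.3 CPM, others 5.21 to 5.34 CPM). Naive mouse 1 was below the others in Tnfrsf11a, the RANK gene (10.7 CPM, others 13.5 to 13.6 CPM). Arthritic mouse 4 was below the others in Gclc, of glutathione synthesis (15.1 CPM, others 19.1 to 19.7 CPM).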

How the results depend on the processing

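The 1721 calls became 2905 with DESeq2, 735 with the replicate number as a block, 435 when only the 8 libraries compared were fitted, and 4136 when those were fitted without arthritic mouse 1. Leaving out 1 library gave between 412 (without arthritic mouse 3) and 4694 calls (without arthritic mouse 1). In combinations chosen after seeing the data, the calls were 3417 without arthritic mice 1 and 2, 4913 without mice 1 and 4, 3039 without mice 1, 2 and 4, 3771 without arthritic mouse 1 and naive mouse 4, and 1 (Ddit4) without mice 2 and 4, where 2791 genes had an unadjusted p under 0.05. The cause was not tested. The other 7 settings gave between 1163 and 1790 calls. The split of 979 higher and 742 lower became 486 and 677 with limma-voom. Of 198 named genes 57 lost their call with limma-voom, 68 when only the 8 libraries compared were fitted, and 0 with DESeq2. Only the fit with no filter on low counts moved the median of all genes by over 0.1, to 0.38 on the log2 scale.

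Over 198 named genes and all settings, 5536 values were computed: 4607 kept the direction and the side of the threshold, 806 lost the call, 119 gained one and 4 changed sign. All 4 were Col2a1, not called in any: 0.11 without arthritic mouse 1 in both sets of libraries, 0.06 without arthritic mouse 3 and 0.25 without mice 1 and 4, against -0.11 with all libraries and -0.69 without arthritic mouse 2. Replicate numbers did not pair the mice (correlations of deviations 0.207, 0.015, -0.016 and -0.003 for numbers 1 to 4), and the replicate block is reported only here.

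Depth limits genes below about 1 CPM, as Il6 was in the naive mice and in arthritic mouse 1: arthritic mouse 2, the shallowest library, has a floor of 0.394 CPM.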

Other observations

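Some genes missed the threshold in edgeR with all mice and passed it without arthritic mouse 1; the 4 named here were called with all mice in DESeq2. Mefv, the pyrin gene of myeloid inflammasomes, was at 0, 0.421, 1.2 and 0 CPM in the naive mice and at 0.331, 7.49, 9.59 and 3.25 CPM in the arthritic mice (4.03 without mouse 1, adjusted p = 0.00987; 3.65 with all mice, adjusted p = 0.0567). Ccne1, the cyclin that starts DNA replication, was at 0.91 CPM in mouse 1, inside the naive range, and at 3.28, 6.8 and 4.33 CPM in mice 2 to 4 (2.77 without mouse 1, adjusted p = 0.0143; 2.45 with all mice, adjusted p = 0.0635). Cmbl, a hydrolase, was at 97, 99.9, 84.2 and 133 CPM in the naive mice, at 92.8 CPM in mouse 1 and at 16.9, 22 and 35.8 CPM in mice 2 to 4 (-2.06 without mouse 1, adjusted p = 7.58e-05). Mlf1 was at 33.1 CPM in mouse 1, inside the naive range of 31.4 to 43.4 CPM, and at 7.09, 4.38 and 12.6 CPM in mice 2 to 4 (-2.30 without mouse 1, adjusted p = 0.000223).

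Outside inflammation and muscle fibres, the growth factor Fgf6 of skeletal muscle was at 13.9, 13.8, 15.5 and 23.1 CPM in the naive mice and at 6.12, 3.02, 2.12 and 3.39 CPM in the arthritic mice (a fall by 2.17 on the log2 scale, adjusted p = 0.005). Pou3f1, a transcription factor of promyelinating Schwann cells, was at 5.66, 4.92, 3.23 and 4.37 CPM against 2.15, 1.97, 1.89 and 1.88 CPM (a fall by 1.20, adjusted p = 0.0108), with the 4 arthritic mice close together. Of 17 tested limb identity genes of the distal paw 2 (11.8%) were called lower, against 4.45% of all tested genes. The count was 4 without arthritic mouse 1, where 12.7% of all tested genes were called lower. It was 1 without arthritic mouse 2 or 3 and 0 without naive mouse 4. Hoxd13 was at 10.2, 12.4, 8.72 and 15.4 CPM against 6.95, 4.86, 5.06 and 7.73 CPM (a fall by 0.92, adjusted p = 0.0262, at most 0.0847 without arthritic mouse 3). Igfbp6, a binder of insulin-like growth factor 2, fell by 0.93, from between 198 and 245 CPM to 153, 110, 96.3 and 110 CPM (adjusted p = 0.00807).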
